A study of Mus musculus with 102 samples.

Results

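Spleens of 26-month-old male mice were compared with spleens of 20-month-old male mice, the latest step of an ageing series sampled at 6 ages. The comparison took the spleen libraries of both ages, 5 at 26 months and 7 at 20 months, out of 45 spleen libraries and 102 samples in all. All 45 spleen libraries are labelled wild type and male, and their titles name the strain BL6J (C57BL/6J), so genotype, sex and tissue were shared and age was the labelled difference. The titles also carry ET codes, some shared by samples of both ages, that no label explains. A further code differs in every title, but no label says that they came from separate animals. The p-values therefore measure the spread between libraries, pooled over all 6 ages. The 33 libraries at 3, 5, 8 and 14 months entered only the estimate of the spread and the description of earlier ages. Values are read counts divided by a size factor for each library, called normalized reads below. Of 51810 genes in the table, 16243 reached 10 normalized reads in at least 5 libraries and were tested.

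The spleen filters blood and houses immune cells. Its red pulp holds macrophages that clear old red cells and, in mice, sites where red cells and granulocytes can form. Its white pulp holds follicles of B cells and sheaths of T cells. Both are held by a capsule, smooth-muscle trabeculae, sinus endothelium, and reticular stromal cells that lay down matrix and secrete chemokines. In a piece of whole spleen, fewer cells of a type and less RNA per cell cannot be told apart.

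Depth lay between 4650017 and 9396019 reads at 26 months and between 3031246 and 11702988 reads at 20 months. The B-cell gene Cd79a, the T-cell gene Cd3e, the red pulp macrophage regulator Spic and the splenic regulator Nkx2-3 were detected in all 12 libraries, while Ms4a1, another B-cell gene, was listed at 0 in all of them. No pair of libraries agreed within sampling noise. The nuclear RNA Malat1 took 0.858, 1.45, 3.04, 1.09 and 0.579% of the reads at 26 months. At 20 months it took 0.774, 1.06 and 1.13% in 3 libraries (replicates 4, 5 and 6) and 2.0 to 3.17% in the other 4, so libraries of both kinds occurred at each age.

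Genes of stromal, smooth-muscle and vascular cells were among those lower at 26 months, and a smaller group of higher genes included natural killer receptors, CD8 genes and replication genes. Of 16243 genes tested, 626 (3.85%) were called, with an adjusted p under 0.05 by limma over all genes; 537 (3.31%) were lower at 26 months and 89 (0.548%) were higher. The call rests on a spread shared by all 45 libraries. The median gene SD on the log2 scale was 0.440 to 0.469 at 3 to 14 months, against 0.594 at 20 and 0.564 at 26 months. In a limma fit of the 12 libraries alone 117 genes were called, 1 higher and 116 lower, of which 115 were among the 537. Whether the larger spread or the smaller number of libraries lowered that count was not tested. Every value at 26 months lay outside the range at 20 months for 253 genes (1.56% of those tested), among them 158 of the 537 lower genes and 22 of the 89 higher ones. For comparison, 20 against 14 months gave 0 calls by limma (1555 genes at an unadjusted p under 0.05), 9 by edgeR and 155 by DESeq2.

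Single libraries moved these counts by more than 1.5 times. Without replicate 3 at 26 months limma called 1014 genes, 251 of them higher, of which 68 were among the 89. Without replicate 2 at 26 months it called 398, with 31 higher, and without replicate 5 at 26 months 377, with 337 lower and 40 higher. The count of higher genes was 52 without replicate 1, 59 without replicate 2 and 160 without replicate 4 at 20 months.

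**Figure D1:**
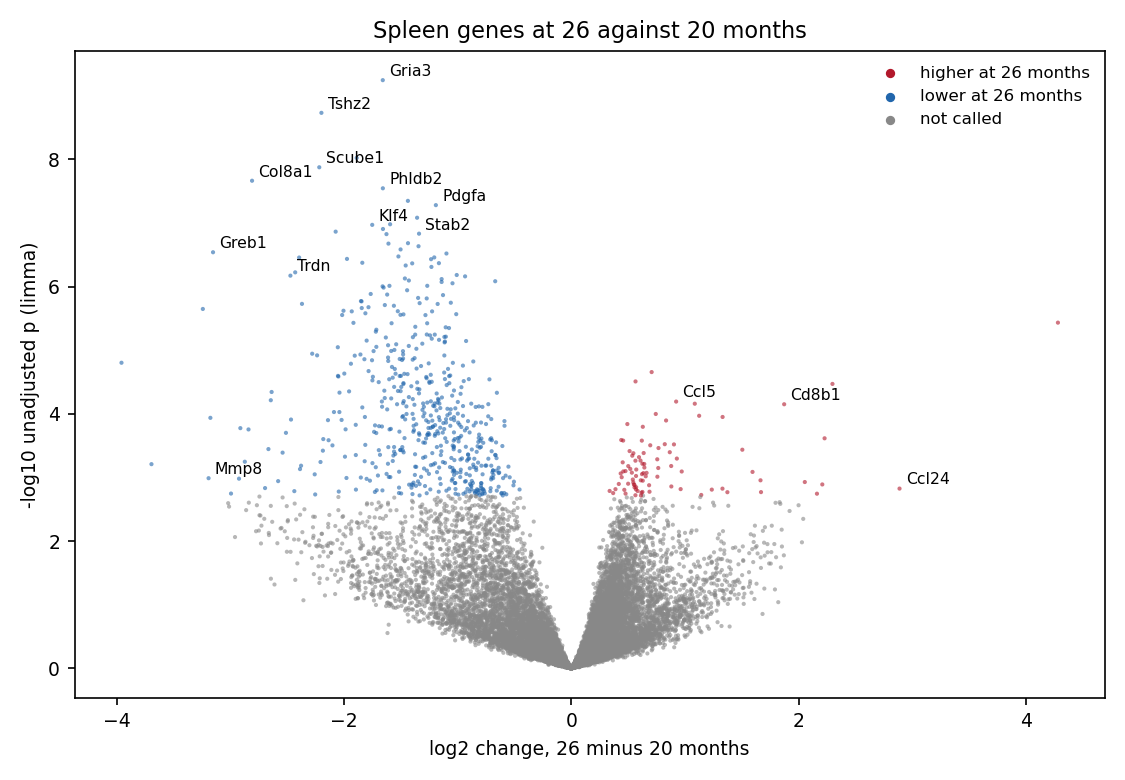
Log2 change (26 minus 20 months, horizontal) against −log10 of the unadjusted limma p (vertical), 1 point per gene of 16243. Red points are the 89 genes called higher at 26 months, blue points the 537 called lower and grey points the rest; the lower genes reach smaller p-values than the higher ones.

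Regulators of mesenchymal and vascular cells were among the lower genes. Tcf7l1, Phldb2, Pdgfa, Prex2, Cemip, Sema3a, Shroom3, Gria3 and Greb1 are named for their small p after the values were seen. Tshz2, a zinc-finger transcription factor gene on chromosome 2 (169633013 to 170071816, plus strand, GRCm38), had 127, 169, 367, 290.4 and 131 normalized reads at 26 months, against a lowest of 488, a median of 928 and a highest of 1662 at 20 months. The groups did not overlap, and the difference on the log2 scale was -2.20 (SE 0.29, limma adjusted p = 1.51e-05). Tcf7l1, a transcription factor of the Wnt pathway, had 44.8, 68.9, 163, 108 and 64.5 normalized reads at 26 months, against 162 to 495 (median 329) at 20 months. Only the highest 26-month library reached the 20-month range, and the log2 change was -1.89 (SE 0.27, limma adjusted p = 5.16e-05). Klf4, a zinc-finger factor of epithelial, myeloid and vascular cells, had 145, 129.8, 185, 293 and 188 normalized reads at 26 months, against 340.2 to 1092 (median 646) at 20 months. It did not overlap either (log2 change -1.75, SE 0.28, limma adjusted p = 0.000158). Meis1, a homeobox factor of blood progenitors and endothelium, fell by 1.11 on the log2 scale (SE 0.22, limma adjusted p = 0.00126), and the endothelial and progenitor factor Erg fell by 1.03 (SE 0.27, limma adjusted p = 0.0151), both without overlap of the groups.

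Other lower genes encode secreted or matrix proteins. Scube1, which encodes a secreted and surface-bound glycoprotein (chromosome 15, 83604999 to 83725021, minus strand), had 54.5, 45.7, 94.8, 89.9 and 85.8 normalized reads at 26 months, against 213 to 603 (median 317) at 20 months. Col8a1, a short-chain collagen of vessel walls (chromosome 16, 57624258 to 57754737, minus strand), had 10.5, 21.5, 14.8, 17.8 and 23.3 normalized reads at 26 months, against 51.6 to 183 (median 129.8) at 20 months. Neither gene overlapped between the ages, and the log2 changes were -2.22 for Scube1 (SE 0.32, limma adjusted p = 5.43e-05) and -2.81 for Col8a1 (SE 0.42, limma adjusted p = 7.06e-05). Pdgfa, a growth factor for mesenchymal cells, had 226, 199, 323, 252 and 234 normalized reads at 26 months, against 366 to 642 (median 604) at 20 months, again apart (log2 change -1.19, limma adjusted p = 0.000107). Cemip, involved in hyaluronan breakdown, averaged 96.5 ± 20.4 normalized reads at 26 months and 298 ± 82.0 at 20 months (SD, n = 5 and 7), and the guidance factor Sema3a averaged 324 ± 56.0 at 26 months and 1036 ± 231 at 20 months. Both fell without overlap, by 1.59 and 1.66 on the log2 scale (limma adjusted p = 0.000158 and 0.000162). The collagen gene Col19a1 and the parathyroid hormone receptor gene Pth1r fell by 2.43 (Col19a1) and 2.37 (Pth1r) on the log2 scale (limma adjusted p = 0.000304 and 0.000535), and neither overlapped. Sparc, a collagen-binding matrix protein, fell by 1.03 on the log2 scale (limma adjusted p = 0.0149).

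Some genes of muscle were among the lower ones. Trdn, which encodes triadin of the calcium release complex in muscle (chromosome 10, 33080554 to 33476709, plus strand), had 11.4, 24.2, 47.4, 17.8 and 16.6 normalized reads at 26 months, against 68.2 to 187 (median 119.5) at 20 months. Fhl2, a LIM-domain protein of muscle and mesenchymal cells, had 31.63, 26.9, 20.7, 9.66 and 26.6 at 26 months, against 49.2 to 210.0 (median 101) at 20 months. Neither overlapped, with log2 changes of -2.47 for Trdn (SE 0.43, limma adjusted p = 0.000321) and -2.28 for Fhl2 (SE 0.46, limma adjusted p = 0.00172). Myocd, the coactivator of serum response factor in smooth muscle, was low at both ages, with 0.879 to 17.8 normalized reads at 26 months and 10.1 to 99.95 at 20 months. Its ranges overlapped (log2 change -2.51, SE 0.62, limma adjusted p = 0.0106). The smooth-muscle actin gene Actg2 averaged 22.9 ± 9.30 normalized reads at 26 months and 68.0 ± 35.8 at 20 months (log2 change -1.46, limma adjusted p = 0.00785). Tagln, an actin-binding protein of smooth muscle, averaged 7.35 ± 3.64 at 26 months and 33.2 ± 20.3 at 20 months (log2 change -1.89, limma adjusted p = 0.0439).

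The calls differed in how far they rested on single libraries. Each fit that left out a library still used the younger ages for the spread. Of 51 called genes followed through every fit that left out 1 of the 12 libraries, 26 kept the call in all 12. Tagln kept it in 3 of the 12 fits, with a highest limma adjusted p of 0.152 without replicate 4 at 26 months, and Actg2 in 11. Tek, described next, kept it in 4, with a highest limma adjusted p of 0.104 without replicate 2 at 26 months. Of genes described further below, Ifngas1, Tap1 and Psmb9 kept the call in 5 fits and Cd72 in 6. Mmp8, Igll1, Zbtb46 and Sdha kept it in 7, Cxcl13 in 8 and Donson in 9.

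Endothelial genes and signalling genes of wide expression followed. Stab2, a scavenger receptor of sinus endothelium (chromosome 10, 86841198 to 87008025, minus strand), had 377, 528, 1022, 564 and 458 normalized reads at 26 months, against 935 to 2081 (median 1322) at 20 months. At each age 1 library lay in the range of the other age, and the log2 change was -1.34 (SE 0.22, limma adjusted p = 0.000162). Tek, the receptor for angiopoietins, averaged 158 ± 64.7 normalized reads at 26 months and 338 ± 82.0 at 20 months (log2 change -1.15, limma adjusted p = 0.0385). Phldb2, which organises adhesions at the cell cortex, had 256, 334, 462, 412 and 409.5 normalized reads at 26 months, against 843 to 1436 (median 1181) at 20 months. Prex2, an exchange factor for Rac, averaged 230.0 ± 32.5 at 26 months and 631 ± 141 at 20 months. Both were apart between the ages (log2 changes -1.66 for Phldb2 and -1.44 for Prex2, limma adjusted p = 7.74e-05 and 0.000104). Shroom3, an actin regulator of epithelial shape, fell by 2.07 (SE 0.33, limma adjusted p = 0.000162) with overlapping groups. The smallest p of all belonged to Gria3, a glutamate receptor subunit gene on the X chromosome: it had 114, 127, 253, 114 and 80.4 normalized reads at 26 months, against 265 to 731 (median 353) at 20 months (log2 change -1.66, SE 0.21, limma adjusted p = 9.29e-06). Greb1, an oestrogen-regulated gene, had 1.33 to 9.85 normalized reads at 26 months and 11.3 to 78.8 at 20 months (log2 change -3.15, SE 0.53, limma adjusted p = 0.000232). The protein phosphatase regulator gene Ppp2r2b fell by 2.39 on the log2 scale (SE 0.40, limma adjusted p = 0.000232) with 14.0 to 59.2 normalized reads at 26 months and 45.6 to 248 at 20 months.

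Promoters are printed for genes described here, picked as examples from the lower set (Fhl2, Scube1) and the higher set (Donson, Tap1). The call of Tap1 was near the threshold. Each covers 300 bases around the RefSeq start, most of them upstream (GRCm38.p6), 5′ to 3′ on the gene's strand. RefSeq gave a promoter for 386 of the 537 lower and 65 of the 89 higher genes, so both sets are covered only in part and motif shares were not compared between them. Capitals mark matches on either strand to 4 motifs: GGAATG (TEAD factors), TGANTCA (AP-1), CCGGAA (ETS factors) and the CArG box of serum response factor. Of all 27025 promoters of this length 14.6% held GGAATG, 7.93% TGANTCA, 15.2% CCGGAA and 1.57% a CArG box. Of the 11793 promoters of tested genes 12.3% held GGAATG, 5.44% TGANTCA, 25.3% CCGGAA and 1.33% a CArG box. Fhl2 lies at chr1:43196712-43197011 (minus strand), Scube1 at chr15:83724990-83725289 (minus strand), Donson at chr16:91688679-91688978 (minus strand) and Tap1 at chr17:34187306-34187605 (plus strand).
Fhl2: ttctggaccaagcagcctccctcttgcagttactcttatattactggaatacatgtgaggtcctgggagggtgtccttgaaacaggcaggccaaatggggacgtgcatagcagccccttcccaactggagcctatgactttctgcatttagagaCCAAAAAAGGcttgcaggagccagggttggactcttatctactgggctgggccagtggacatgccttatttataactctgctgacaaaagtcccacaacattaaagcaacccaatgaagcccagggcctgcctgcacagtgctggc
Scube1: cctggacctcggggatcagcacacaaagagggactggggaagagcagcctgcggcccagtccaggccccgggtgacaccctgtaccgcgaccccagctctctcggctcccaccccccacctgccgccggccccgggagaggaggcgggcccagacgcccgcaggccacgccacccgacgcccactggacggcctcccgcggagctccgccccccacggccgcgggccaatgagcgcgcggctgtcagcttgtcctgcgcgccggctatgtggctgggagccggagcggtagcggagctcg
Donson: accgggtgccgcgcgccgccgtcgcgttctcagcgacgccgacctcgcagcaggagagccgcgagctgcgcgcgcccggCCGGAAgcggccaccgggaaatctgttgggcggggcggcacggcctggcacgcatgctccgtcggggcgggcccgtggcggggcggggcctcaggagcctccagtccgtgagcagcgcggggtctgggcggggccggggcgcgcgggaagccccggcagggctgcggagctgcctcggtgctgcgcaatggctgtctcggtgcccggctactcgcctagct
Tap1: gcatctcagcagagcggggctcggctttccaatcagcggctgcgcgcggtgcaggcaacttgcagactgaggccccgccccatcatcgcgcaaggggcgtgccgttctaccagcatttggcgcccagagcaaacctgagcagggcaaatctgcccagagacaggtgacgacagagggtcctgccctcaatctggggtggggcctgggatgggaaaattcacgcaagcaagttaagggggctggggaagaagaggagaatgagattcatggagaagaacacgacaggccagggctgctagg
Fhl2 held a CArG box and Donson 1 ETS match, while Scube1 and Tap1 held none of the 4 motifs in this window. The promoter of Tap1 overlaps that of Psmb9, on the opposite strand at chr17:34187281-34187580, by 275 bases.

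Lists of stromal cell genes had negative medians. Over all tested genes 3.31% were called lower and 0.548% higher, and the median log2 change was 0.03. Of 7 smooth-muscle genes tested 2 were called lower (Actg2 and Tagln) and 0 higher, with a median log2 change of -1.02. Of 6 splenic stroma genes 1 was called lower, Cxcl13, the chemokine that draws B cells to follicles, and the median was -0.71. Cxcl13 had 604, 1479.7, 1899.6, 1532 and 940 normalized reads at 26 months, against 1303 to 4759.8 (median 2234) at 20 months, so 3 of the 5 libraries lay within the 20-month range (log2 change -1.05, limma adjusted p = 0.0256). The splenic regulators Nkx2-3 and Wt1 averaged 92.8 ± 28.9 and 364 ± 76.7 normalized reads at 26 months, against 194 ± 81.1 and 577 ± 163 at 20 months, and did not pass (limma adjusted p = 0.0756 and 0.117). Of 10 endothelial genes 2 were called lower, Stab2 and Tek (median -0.60), of 12 matrix and fibroblast genes 1, Sparc (median -0.51) and of 4 mesothelial genes 0 (median -1.21). None of the members of these lists was called higher. The lists and their direction were already known from these data and are not independent support.

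**Figure D2:**
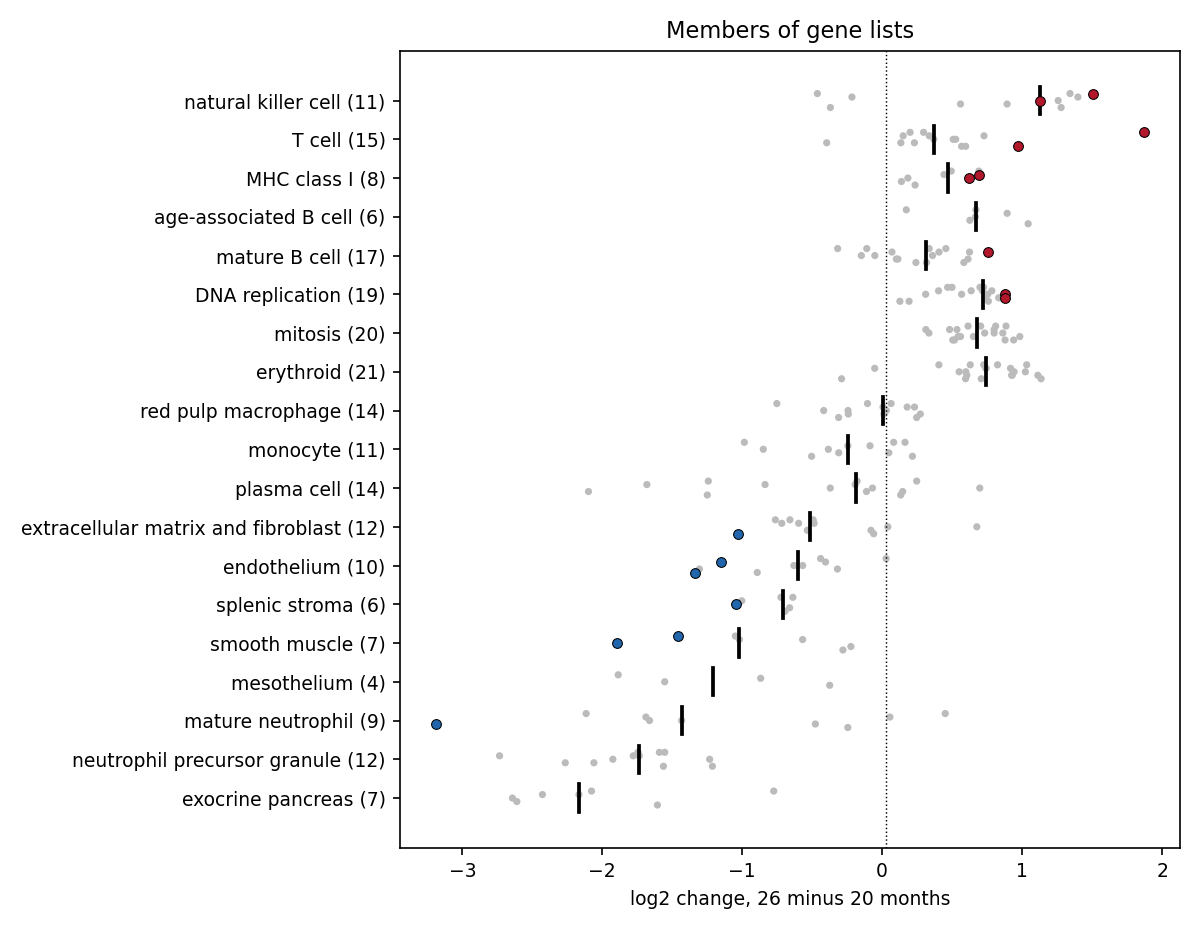
Log2 change (26 minus 20 months) of each tested member of 19 gene lists, with the number tested in parentheses. Filled red and blue points are members called higher and lower at 26 months, grey points were not called, black bars are list medians and the dotted line is the median of all tested genes; the smooth-muscle median lies at -1.02 and the natural killer median at 1.13.

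The level of the lower genes over the whole series was highest at 20 months in the median. Relative to 3 months, their median log2 level stood at 0.06 and 0.04 in the 5- and 8-month groups, 0.65 in the 14-month group, 0.85 in the 20-month group and -0.36 in the 26-month group. Those values at 26 and 20 months follow from how the genes were chosen, but the younger libraries took no part in the choice beyond the shared spread. Between 14 months and the 5- and 8-month groups 487 genes were called higher by limma (3.00% of those tested) and 73 lower. Of the 537 genes lower at 26 months, 214 were called higher at 14 months, which is 39.9% of the 537 and 43.9% of the 487, and 0 were called lower. Of the 89 genes higher at 26 months 0 were called higher at 14 months and 3 were called lower. Whether the step from 20 to 26 months differed from the step from 14 to 20 months was tested directly, and 142 genes (0.874%) were called by limma, 13 in the positive and 129 in the negative direction.

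Single genes showed that course. Col8a1 averaged 23.8 ± 15.5, 21.8 ± 7.52, 32.1 ± 14.4, 73.8 ± 42.3, 134 ± 45.7 and 17.6 ± 5.12 normalized reads in order of age (SD, n = 7, 9, 8, 9, 7 and 5). Tshz2 stood at 313 ± 157, 297 ± 71.4, 317 ± 103, 635 ± 157, 979 ± 401 and 217 ± 107 at the same ages. At 14 months both were higher than at 5 and 8 months (log2 change 1.29 and 1.06, limma adjusted p = 0.00899 and 0.00409). Klre1, a natural killer receptor gene, ran the other way with 95.1 ± 35.2, 91.2 ± 24.0, 93.2 ± 19.6, 47.0 ± 19.0, 45.6 ± 10.9 and 101 ± 29.4, and was lower at 14 months than at 5 and 8 (log2 change -1.03, limma adjusted p = 0.00216).

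**Figure D3:**
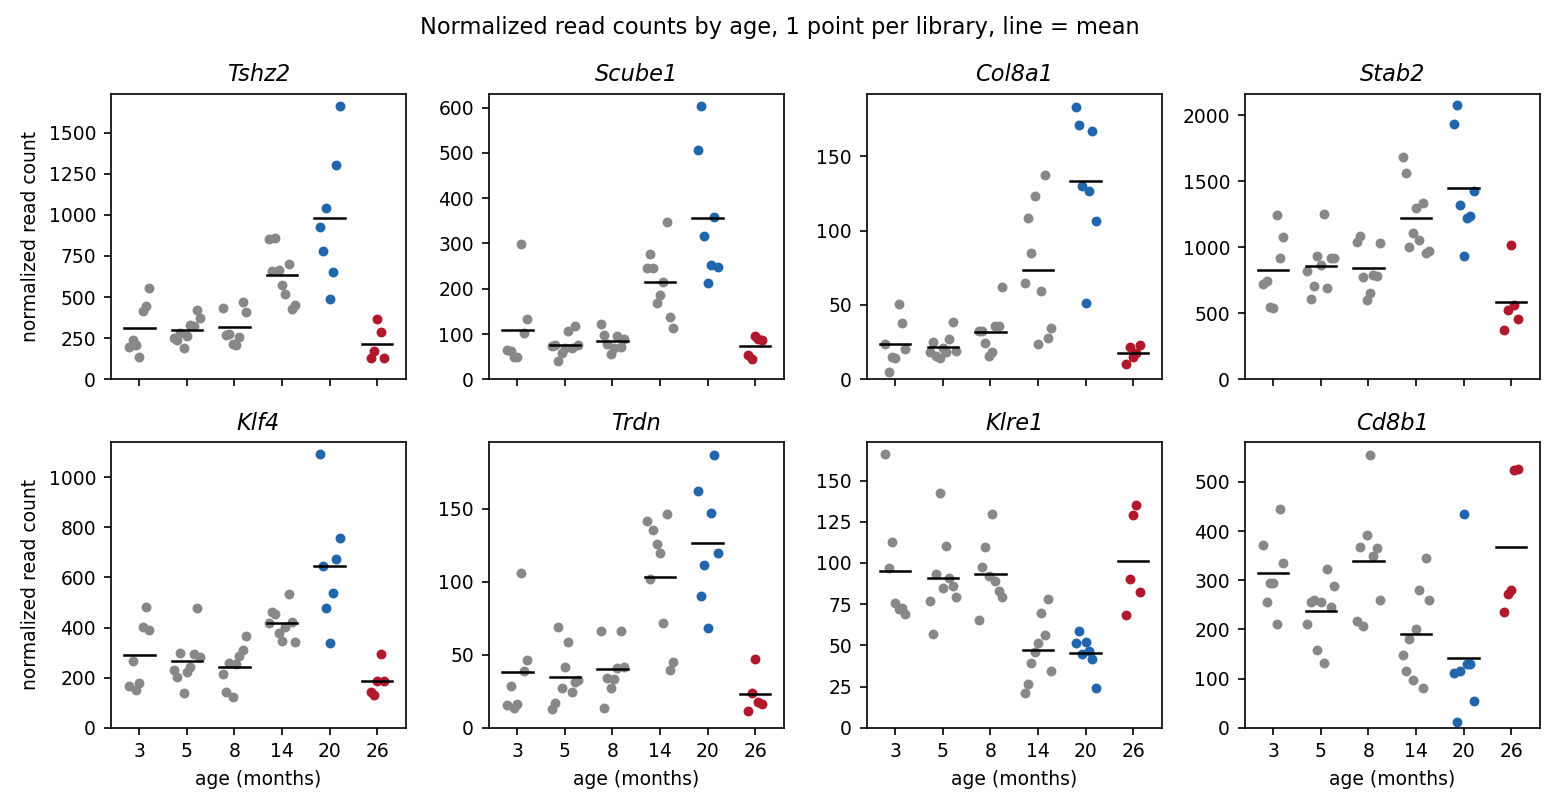
Normalized read count (vertical, linear from 0) by age in months (horizontal) for 6 genes lower and 2 genes higher at 26 months; each point is 1 library and each line a group mean, with 26 months in red and 20 months in blue. Tshz2, Scube1, Col8a1, Klf4 and Trdn have no overlap between 26 and 20 months, and their means are highest at 20 months.

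Gene span and Malat1 moved with the result, and their part in it was tested only as far as the fits given here. The lower genes had a median genomic span of 133 kb, against 24.3 kb over all tested genes and 15.2 kb for the higher genes; 60.9% of the lower genes and 15.2% of all spanned over 100 kb. Over all tested genes, called or not, the median log2 change was 0.16 for spans under 10 kb and -0.55 in the longest of 5 span classes. With the log2 share of Malat1 as a covariate, limma called 721 genes lower (4.44%) and 128 higher (0.788%), and these included 487 of the 537 and 66 of the 89. The median log2 change of the 537 was -1.25 without and -1.12 with the covariate. In the libraries under 1.5% Malat1, 4 at 26 and 3 at 20 months, the median of the 537 was -1.11, and limma called 1 gene (2466 at an unadjusted p under 0.05). These 7 libraries are among the 12 that chose the genes, which largely fixes the sign, and 12401 of all 16243 genes kept theirs. After a trend over gene span was removed from each library the median was -0.93, and limma called 321 genes lower and 183 higher, among them 303 of the 537 and 66 of the 89. Tshz2, Scube1, Col8a1, Phldb2, Klf4, Pdgfa and Gria3 were called lower in both the covariate and the span-trend fits; Sema3a and Prex2 lost the call in the span-trend fit (limma adjusted p = 0.0824 and 0.0522).

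**Figure D4:**
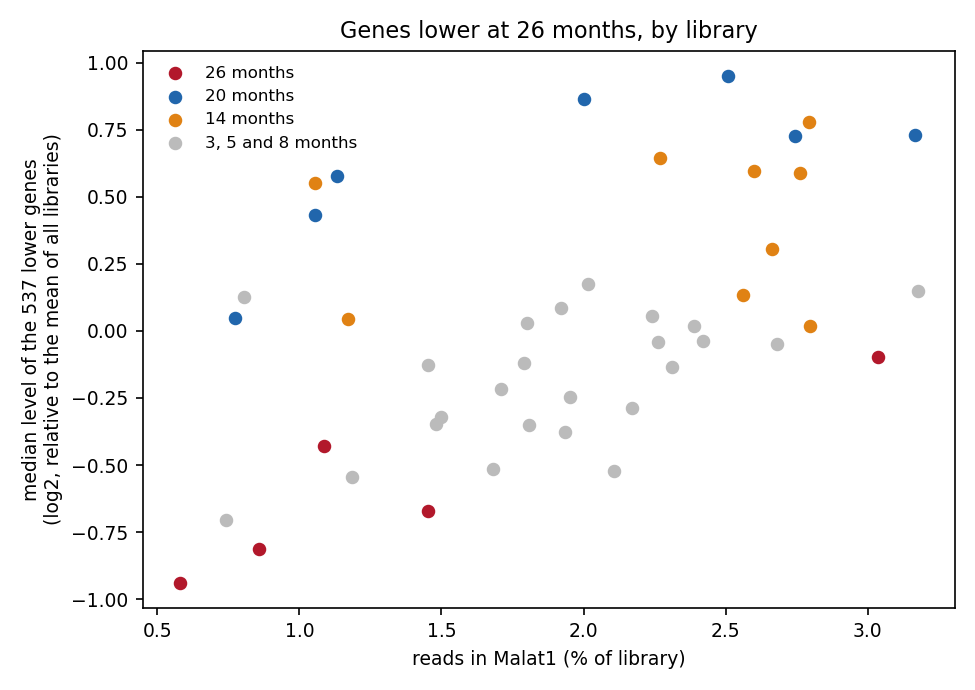
Median log2 level of the 537 lower genes in each library, relative to the mean of all 45 libraries (vertical), against the share of reads in Malat1 (horizontal, %). All 5 libraries at 26 months (red, -0.94 to -0.10) lie below all 7 at 20 months (blue, 0.05 to 0.95), as the choice of the genes makes likely; orange points are 14 months and grey points 3, 5 and 8 months. Within each of the 2 late ages the lowest point is a library low in Malat1.

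Of the genes called higher at 26 months, 3 encode natural killer receptors. Klre1 (chromosome 6, 129577905 to 129585827, plus strand) had 68.5, 90.4, 129, 135 and 82.4 normalized reads at 26 months, against 24.1 to 58.5 (median 46.4) at 20 months, a difference of 1.13 on the log2 scale (SE 0.27, limma adjusted p = 0.00729). Klrc1, which encodes the receptor NKG2A, had 94.0, 102, 169, 88.4 and 77.1 normalized reads at 26 months, against 18 to 68.8 (median 41.4) at 20 months, and Klra7, a Ly49 receptor, had 50.1, 62.7, 68.1, 69.1 and 63.2 at 26 months, against 8.80 to 45 (median 24.7) at 20 months. None of these 3 overlapped between the ages (log2 change 1.33 and 1.51 for Klrc1 and Klra7, limma adjusted p = 0.00742 and 0.0162), but reads may be exchanged among the near-identical Klra and Klrc genes. Of 11 natural killer genes tested 2 were called higher and 0 lower, where 0.548% of all tested genes were called higher. Of the 11 changes 8 were positive and 3 negative, with a median log2 change of 1.13. In the libraries under 1.5% Malat1 the list median was 0.04. In the fit of the 12 libraries alone limma called 1 gene higher in all, so at most 1 of the 3 receptor genes.

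Cd8b1, which encodes the beta chain of the CD8 co-receptor, had 235, 271, 281, 525 and 526 normalized reads at 26 months, against 11.3 to 435 (median 116) at 20 months. 1 library at 20 months, replicate 4, lay among the 26-month values (log2 change 1.87, SE 0.43, limma adjusted p = 0.00549). Cd8a, the alpha chain, averaged 257 ± 81.5 normalized reads at 26 months and 132 ± 48.1 at 20 months (log2 change 0.97, limma adjusted p = 0.0281). Leaving out 1 library at a time kept the call of Cd8b1 in all 12 fits and that of Cd8a in 5 of 12. The highest limma adjusted p of Cd8a was 0.0968, without replicate 5 at 26 months. These fits still used the younger ages for the spread. With the 12 libraries of the 2 ages alone, limma called only 1 gene higher among all those tested. Ccl5, a chemokine of cytotoxic lymphocytes, had 289, 522, 490.1, 413 and 527 normalized reads at 26 months, against 119 to 373 (median 237) at 20 months, with 1 library at 26 months inside that range (log2 change 0.92, limma adjusted p = 0.00529). Samd3 averaged 170.2 ± 60.9 at 26 months and 79.9 ± 29.4 at 20 months (log2 change 1.09, limma adjusted p = 0.00547), and Ifngas1, an antisense RNA beside the interferon gamma gene, averaged 125 ± 93.5 at 26 months and 45.2 ± 24.9 at 20 months (log2 change 1.33, limma adjusted p = 0.0434). Whether reads were counted by strand is not given in the sources used here. Of 15 T-cell genes 2 were called higher, the CD8 genes, and 0 lower, with a median of 0.37. Of 9 naive T-cell genes 0 were called, and of all tested genes 0.548% were called higher.

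Antigen presentation and replication genes gave a few calls, where 0.548% of all tested genes were called higher. Tap1, the peptide transporter, had 728, 958, 862, 1231 and 1357 normalized reads at 26 months, against 331 to 1027 (median 734) at 20 months. Psmb9, an immunoproteasome subunit that shares its promoter region, had 418, 588, 620.4, 541 and 538 at 26 months, against 101 to 506 (median 416) at 20 months. Both ranges overlapped, and the calls were near the threshold (log2 change 0.62 and 0.69, limma adjusted p = 0.0471 and 0.0459) and were not made with the Malat1 covariate (limma adjusted p = 0.0796 and 0.0614). They were the 2 calls among 8 MHC class I genes (median 0.47), and of 8 MHC class II genes 0 were called. The summed class I list was 12807 and 9996 normalized reads in replicates 2 and 7 at 20 months. It was 18761 to 23238.5 in the others at 20 months and 22502.5 to 24976.5 at 26 months. Donson, a replication fork protein, had 175, 162, 117, 113 and 118 normalized reads at 26 months, against 35.3 to 97.3 (median 84.5) at 20 months, without overlap (log2 change 0.93, limma adjusted p = 0.0202). The helicase subunit gene Mcm4 averaged 697 ± 345 at 26 months and 359 ± 139 at 20 months, and the licensing factor gene Cdt1 147 ± 47.3 at 26 months and 83.5 ± 48.2 at 20 months (log2 change 0.88 each, limma adjusted p = 0.0245 and 0.0409). Leaving out 1 library at a time kept the call of Cdt1 in 3 of 12 fits and that of Mcm4 in 7, with the highest limma adjusted p, 0.147 and 0.134, both without replicate 1 at 26 months. Of 19 replication genes Mcm4 and Cdt1 were called, all 19 changes were positive and the median was 0.72. Cd72, a B-cell co-receptor, averaged 1739 ± 672 normalized reads at 26 months and 1025 ± 379 at 20 months and was the 1 call among 17 mature B-cell genes (log2 change 0.76, limma adjusted p = 0.032; list median 0.32). Sdha, a subunit of succinate dehydrogenase, was the 1 call among 18 respiratory chain genes (1339 ± 156 at 26 months and 991 ± 218 at 20 months, log2 change 0.46, limma adjusted p = 0.0281).

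Red-cell precursor and dividing-cell genes varied widely among libraries of the same age. The transferrin receptor gene Tfrc had 11596, 6806, 517, 442 and 3911 normalized reads at 26 months, against 297 to 6134 (median 644) at 20 months, and carbonic anhydrase 2 (Car2) had 16835, 12704, 221, 311 and 6044 at 26 months, against 247 to 9077 (median 643) at 20 months. At 26 months both genes were high in replicates 1, 2 and 5 and low in 3 and 4, and the ranges of the ages overlapped. Neither gene passed (limma adjusted p = 0.348 and 0.574). The erythroid gene Hba-a2 differed, being low in replicate 5: it had 6731, 10817, 4008, 813 and 951 normalized reads at 26 months, against 395 to 12740 (median 1280) at 20 months. None of 21 erythroid genes (median 0.74) or 20 mitosis genes (median 0.68) was called, and the mitotic motor gene Cenpe had 357 to 3805 normalized reads at 26 months and 186 to 3119 at 20 months (limma adjusted p = 0.341). The summed replication list was 19937, 13017, 3533, 4607 and 13227 normalized reads at 26 months, high in the same 3 libraries as the erythroid list, against 3000 to 14305 at 20 months. The part of these cells in the replication calls was not tested.

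**Figure D5:**
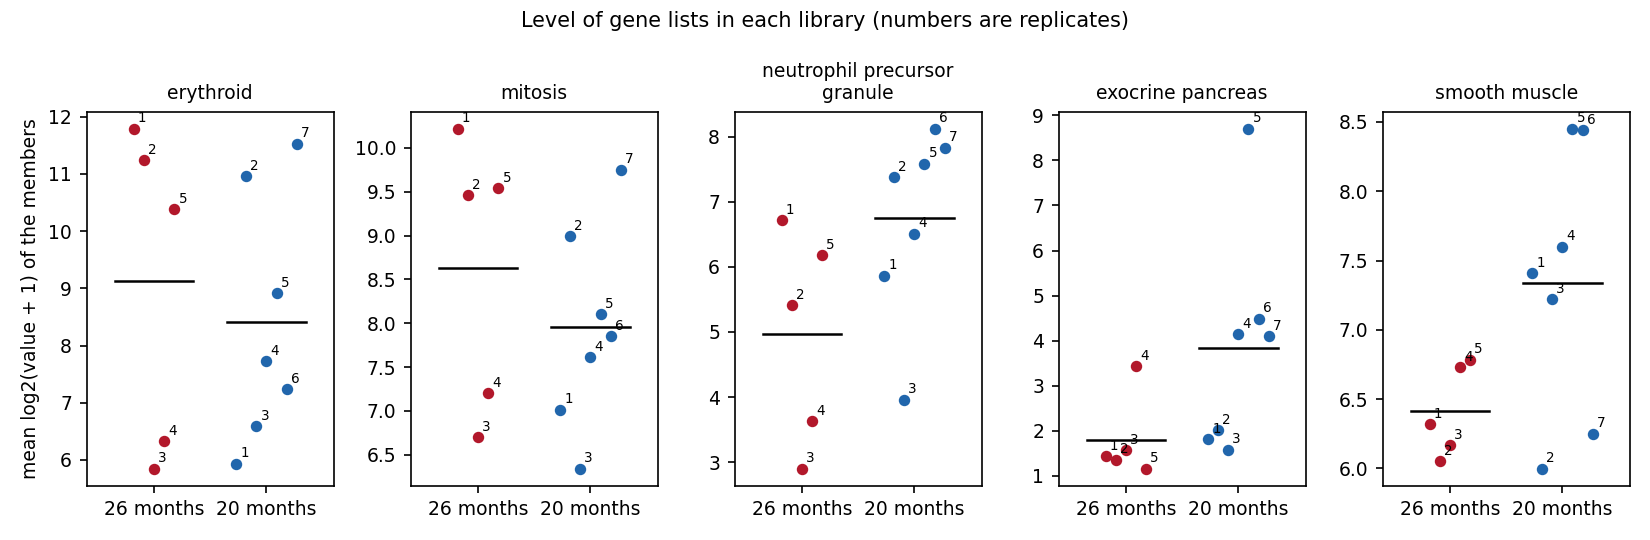
Mean log2(value + 1) of the tested members of 5 lists in each library, 26 months at left (red, n = 5) and 20 months at right (blue, n = 7); numbers are replicates and lines are group means. Erythroid and mitosis levels vary widely within both ages, and neutrophil precursor and smooth-muscle levels overlap. For exocrine pancreas genes replicate 5 at 20 months stands highest (8.71), with replicates 4, 6 and 7 at 4.10 to 4.48.

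Among granulocyte genes 1 was called, where 3.31% of all tested genes were called lower. Mmp8, a collagenase of neutrophil granules, had 53.6, 35.8, 0, 16.3 and 82.4 normalized reads at 26 months, against 30.3 to 705 (median 199) at 20 months (log2 change -3.19, SE 0.91, limma adjusted p = 0.0329), with overlapping ranges. It was the 1 call among 9 genes of mature neutrophils (median -1.43), where the calcium-binding S100a8 had 8.88 to 211 normalized reads at 26 months and 66.4 to 652 at 20 months (limma adjusted p = 0.137). All 12 granule genes of neutrophil precursors had negative changes and 0 were called (median -1.74): cathepsin G (Ctsg) had 34.3, 17.9, 0, 0 and 19.9 normalized reads at 26 months and 3.09 to 110.3 at 20 months (limma adjusted p = 0.0801), and myeloperoxidase (Mpo) 1.48 to 97.5 at 26 months and 19.3 to 311 at 20 months (limma adjusted p = 0.243). With the Malat1 covariate, a fit chosen after seeing the data, 2 of the 12 precursor genes and 4 of the 9 mature neutrophil genes were called lower. That fit called 4.44% of all tested genes lower.

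Other lymphoid and myeloid lists held few or no calls. Igll1, a surrogate light chain gene of B-cell precursors, was listed at 0 in 4 libraries and at 3.71 normalized reads in 1 at 26 months, against 1.78 to 99.0 (median 15.2) at 20 months (log2 change -3.69, SE 1.00, limma adjusted p = 0.0234). With Erg, named above as an endothelial and progenitor factor, it made 2 calls lower among 7 B-cell precursor genes. Over all tested genes 3.31% were called lower. Of the 7 changes 3 were positive and 4 negative, with a median of -0.60. The joining chain gene Jchain averaged 7009 ± 4074 normalized reads at 26 months and 11669.7 ± 4329 at 20 months, and the immunoglobulin gene Ighg2b 2156 ± 1927 at 26 months and 7235 ± 5374 at 20 months; neither passed (limma adjusted p = 0.0836 and 0.0659), like the other 12 plasma cell genes (median -0.19). None of 6 age-associated B-cell genes was called (median 0.67), among them Itgax with 575 ± 193 at 26 months and 354 ± 215 at 20 months (limma adjusted p = 0.0642). Zbtb46, a factor of classical dendritic cells and endothelium, was the 1 call among 9 dendritic cell genes, of which 5 had positive changes (list median 0.26; Zbtb46 443 ± 169 at 26 months and 689.6 ± 184 at 20 months, log2 change -0.68, limma adjusted p = 0.0303). None of 14 red pulp macrophage genes (median 0.01), 11 monocyte genes (median -0.25), 19 interferon-stimulated genes (median 0.26) or 9 inflammatory cytokine genes (median 0.52) was called. Of the 50 lists, 33 had no member called, 10 had members called lower only and 7 higher only.

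Signs of neighbouring tissue differed between libraries. The pancreatic enzyme list summed to 46 to 293 normalized reads at 26 months and 85 to 347 in 6 libraries at 20 months, but 3529 in replicate 5. The mean log2 level of the list was 4.14, 8.71, 4.48 and 4.10 in replicates 4, 5, 6 and 7 at 20 months, and 1.58 to 2.01 in the others. At 26 months it was 3.43 in replicate 4 and 1.16 to 1.57 in the others. The lipase gene Pnlip was at 0 in 3 and at 0.879 and 8.91 in 2 libraries at 26 months, against 0 to 642 (median 9.66) at 20 months. All 7 tested pancreatic genes had negative changes (median -2.17), and none was called. The adipocyte list summed to 39 to 223 at 26 months and 70 to 247 at 20 months. Without replicate 5 at 20 months, and with replicates 4, 6 and 7 kept, 559 genes were called lower and 95 higher. Of these, 497 and 72 were among the 537 and 89.

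For other named genes the call or the level rested on few libraries. Ccl24, an eosinophil-attracting chemokine, had 276, 5.37, 0, 28.2 and 113 normalized reads at 26 months, against 0 to 8.80 (median 3.09) at 20 months. It was the named gene with the largest increase, although 1 library at 26 months held none (log2 change 2.89, SE 0.85, limma adjusted p = 0.0434), and the call was not made with the Malat1 covariate (limma adjusted p = 0.0708). Pdcl2 and Adam32, known for expression in testis, had 1.99 to 13.4 and 1.49 to 11.8 normalized reads at 26 months, against 8.00 to 362 and 6.40 to 333 at 20 months, with both maxima in replicate 2 (limma adjusted p = 0.022 and 0.0264). Mrps36, a mitochondrial protein gene, averaged 105 ± 24.3 normalized reads at 26 months and 55.8 ± 21.0 at 20 months (log2 change 0.96, limma adjusted p = 0.0438). Leaving out 1 library at a time kept the call in 5 of 12 fits each for Ccl24 and Mrps36, and in 9 each for Pdcl2 and Adam32.

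Variation among libraries was compared as well. The median gene had an SD of 0.564 on the log2 scale at 26 months and 0.594 at 20 months, against 0.440 to 0.469 at the 4 younger ages. A limma test of absolute deviations from the group mean called 90 genes (0.554%) as more spread and 51 (0.314%) as less spread at 26 months. On simulated data that test made far more false calls than its threshold allows, so its calls are not to be relied on. Among them, picked for a small p in the same test, were the chemokine Ccl9 (89.6, 23.3, 7.40, 29.7 and 195 normalized reads at 26 months, 33.8 to 76.2 at 20 months) and the class I gene H2-K1 (7664 to 9044 at 26 months, 3092 to 8397 at 20 months). With deviations from the group median 0 genes were called, and 0 in the 12 libraries alone, and 0 with the Malat1 part removed, against 2466 genes at an unadjusted p under 0.05 by the first test. Without replicate 1 at 26 months 32 genes were called in all, and without replicate 2 at 26 months 502.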

How the data were processed

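RNA of flash-frozen spleen was extracted with TRI-Reagent and made into TruSeq libraries from 1 µg by a ligation-mediated protocol, per the labels' protocols. The tools DESeq2, HISAT2 2.1.0, bcl2fastq 2.20, R 3.5.1, cutadapt and SAMtools and the build GRCm38 are listed, with no roles, per the submitters' processing notes. The authors deposited a normalized signal per gene, and its steps showed it to be read counts divided by a size factor, since 100% of values were whole reads within 0.01 read. The counting tool, its annotation and its strand setting are not given in the sources used here. Brain and intervention tables were not used.

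Genes with a value of 10 or more in at least 5 libraries were tested with limma 3.58.1 (R 4.3.3, with an intensity trend) on log2(value + 1) over all 45 spleen libraries, with the contrast 26 minus 20 months and Benjamini-Hochberg adjustment over all tested genes. Fold changes are on that scale, which understates changes of low genes. Spread was tested by limma on absolute deviations from group means. edgeR 4.0.16 and DESeq2 1.42.0 on the recovered reads, other scalings, filters and pseudocounts, and each library left out were alternatives; the Malat1 and gene-span fits were chosen after seeing the data. Both tests were tried on simulated data, where the spread test made far more false calls than its threshold allows, so its calls are not to be relied on. For the main limma test the simulated libraries had the same spread at every age. The real spread was larger at 20 and 26 months, so that trial cannot show how well its calls keep to their threshold. Coordinates are from GENCODE on GRCm38. Named genes are the 12 largest called changes in each direction with a mean of at least 50 at 1 age, leaving out sex-linked and predicted genes, and the 3 members of smallest p in each list, of which only part are printed; others are stated as named after their values were seen. The members and lists were chosen with earlier results of these data known.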

Additional observations from a re-analysis of the deposited data

Results flagged for a closer look

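Among 65 named genes, 130 groups of 5 or 7 libraries were searched for a single value far from the rest, and 9 (6.92%) had one, where chance gives about 1 in 20. At 26 months replicate 4 stood apart for Igll1, at 3.71 normalized reads against 0 in the others, for Tagln, at 1.49 with the nearest at 7.03, and for Pnlip, at 8.91 with the nearest at 0.879. At 20 months replicate 2 was highest for Zbtb46 (1094, nearest 687) and lowest for Psmb9 (101, nearest 256). Replicate 4 was lowest for Col8a1 (51.6, nearest 106) and Pdgfa (366, nearest 549). Replicate 7 was lowest for Klre1 (24.1, nearest 41.9) and highest for Cdt1 (192, nearest 74.2).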

How the results depend on the processing

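Counts of called genes stayed within 1.5 times under pseudocounts of 0.5 and 10, other filters, TMM and quantile scaling. With the 12 libraries alone limma called 117 genes (116 lower, 1 higher), and with libraries under 1.5% Malat1 it called 1 (0 lower, 1 higher). DESeq2 called 1037 (853 lower, 184 higher). The higher genes numbered 138 by edgeR, 213 with array weights and 44 in libraries of 5000000 reads or more, and removing the span trend gave 321 lower and 183 higher. Leaving out 1 library gave 377 to 1014 calls, 337 to 763 lower and 31 to 251 higher. The spread test gave 80 less spread genes with a pseudocount of 10 and 0 in either direction with median deviations, the 12 libraries alone or the Malat1 part removed. Leaving out 1 library there gave 32 to 502 calls, 18 to 414 more spread and 13 to 230 less spread. In the libraries under 1.5% Malat1, list medians were 0.044 for natural killer, -0.54 for dendritic, 0.10 for MHC class I, -0.092 for circadian, -1.15 for endothelium and -4.37 for exocrine pancreas genes. There the medians were 2.21 for erythroid (0.74 in all 12), 1.24 for mitosis (0.68), -1.79 for smooth muscle (-1.02), -0.58 for interferon-stimulated (0.26) and -0.49 for red pulp macrophage genes (0.01), shifts within the spread between libraries. The cause of these shifts was not tested, and the smaller fits also hold fewer libraries, a part that was not tested either. No paired analysis was possible because no label or column gives a replicate number; those used here follow the order of the samples.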
